A study of Margaritifera margaritifera with 32 samples.

Results

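EGLN1 encodes a prolyl hydroxylase that works as an oxygen sensor in animal cells. Both contigs of the mussel kidney assembly that carry this name, EGLN1.1.2 and EGLN1.2.2, were followed here through 32 animals. They were found by name among 51392 contigs, and no other contig carried it. The freshwater pearl mussel (Margaritifera margaritifera) is a long-lived bivalve of clean rivers. Kidneys were taken from 8 animals in each of 4 groups, upstream or downstream of a dump on the Dronne River in 2009 or 2010. Each library was made from the kidney RNA of 1 individual, and the labels name no treatment beside site, year and age class. Age class was labelled young (10 animals), middle-aged (11) or old (11). Of the 8 animals downstream in 2009, 7 were old, whereas upstream in 2009, upstream in 2010 and downstream in 2010 there were 1, 1 and 2.

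As background from mammals, EGLN1 uses oxygen, iron and 2-oxoglutarate to hydroxylate the alpha subunit of hypoxia-inducible factor (HIF). The hydroxylated subunit is bound by the VHL protein, which sits in a ubiquitin ligase with elongins B and C, a cullin and the RING protein RBX1, and is then degraded. When oxygen is scarce the reaction slows, HIF accumulates, and genes of glycolysis and oxygen supply are induced. Transition metals that compete with iron can slow the same enzyme. Contig names were taken as given and their identity was not tested, and the roles given here come from mammals unless stated.

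Libraries held between 55.7 M and 190 M counts (M for mega). EGLN1.1.2 received 60 to 2022 reads per library and EGLN1.2.2 received 191 to 4253, so both were counted well above the filter in all 32 animals. The spread between animals of a group, given as the biological coefficient of variation, was 39.2% for EGLN1.1.2 and 42.2% for EGLN1.2.2. Downstream 2009 replicates 7 and 8 stood apart by their summed ribosomal protein contigs, at 109945 and 94450 CPM (reads of a contig per mega-read of the scaled library), against 7272 to 57185 CPM in the other 30 libraries of all groups. Vertebrate kidney markers (LRP2, CUBN and nphs1, for megalin, cubilin and nephrin) were detected in every library. So were tropomyosin and myosin light chain contigs, which mark muscle, and DYH7, named for a dynein of cilia.

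The gene was brought forward by the site difference of EGLN1.1.2 over both years, so its site values are a description without a test. Levels are CPM scaled by TMM factors, which adjust library sizes for composition. EGLN1.1.2 ranged from 2.50 to 11.8 CPM with a median of 5.14 upstream in 2009. Downstream in that year it ranged from 1.65 to 4.61 CPM with a median of 2.65. All 8 downstream animals of 2009 lay below the upstream median, and 4 of them lay below every upstream animal.

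In 2010 EGLN1.1.2 ranged from 1.89 to 5.68 CPM upstream, with a median of 4.16. Downstream it ranged from 1.96 to 3.62 CPM, with a median of 2.48. All 8 downstream animals again lay below the upstream median, although the ranges overlapped and 4 upstream animals lay above every downstream one. In order of group means, EGLN1.1.2 had 5.64 ± 2.85 CPM (SD, n = 8) upstream in 2009, 3.86 ± 1.62 upstream in 2010, 2.84 ± 0.976 downstream in 2009 and 2.71 ± 0.618 downstream in 2010. Neighbours in this order overlapped in each case.

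**Figure D1:**
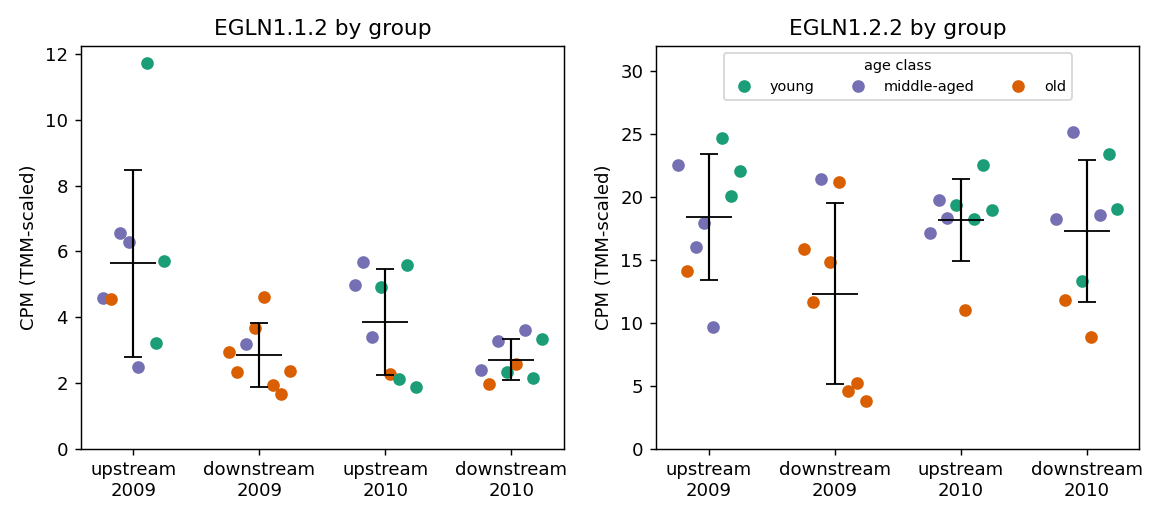
TMM-scaled CPM (linear axis) of EGLN1.1.2 and EGLN1.2.2 in each of the 32 animals by group; points are animals coloured by age class, and bars give the group mean ± SD (n = 8). EGLN1.1.2 has its highest value, 11.8 CPM, upstream in 2009, and the lowest EGLN1.2.2 values, down to 3.80 CPM, are those of old animals downstream in 2009.

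As log2 differences from edgeR, EGLN1.1.2 was lower downstream by -0.75 ± 0.20 (SE) over both years, -0.99 ± 0.28 in 2009 and -0.51 ± 0.28 in 2010. Over all contigs the same 3 contrasts called 0%, 0% and 0.164% (0.162% higher and 0.00195% lower downstream) at an adjusted p under 0.05, and nothing is read from those shares here. With age class in the model the difference over both years was -0.57 ± 0.23, and among animals that were not old it was -0.70 ± 0.37. Only 1 animal downstream in 2009 was not old, so the latter value assumes that this animal varied like the others. Within the 4 sequencing lanes, each holding 8 libraries, the difference over both years was -0.19, -0.69, -1.04 and -0.73. By lane in the same order, it was -0.85, -1.11, -0.79 and -0.90 in 2009 and 0.47, -0.28, -1.29 and -0.55 in 2010. Without upstream 2009 replicate 6, the animal with 11.8 CPM, the edgeR difference was -0.63 over both years and -0.75 in 2009. Each group had its own index sequences, so an effect of the index cannot be told apart from that of the group.

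EGLN1.2.2 showed a smaller site difference, -0.32 ± 0.21 over both years, -0.58 ± 0.29 in 2009 and -0.07 ± 0.29 in 2010. Without downstream 2009 replicates 7 and 8 the 2009 value was -0.29 ± 0.26, and with age class in the model it was -0.0039 ± 0.32. With age class in the model the value over both years was 0.0050 ± 0.21, and among animals that were not old it was 0.094 ± 0.19. Its levels ranged from 9.63 to 24.7 CPM upstream in 2009 (median 19.0) and from 3.80 to 21.5 CPM downstream in 2009 (median 13.2). In 2010 they ranged from 11.1 to 22.6 CPM upstream (median 18.6) and from 8.83 to 25.2 CPM downstream (median 18.4). Thus 3 downstream animals of 2009 lay below every upstream animal of that year, and in 2010 the ranges of the sites overlapped almost fully. The 3 animals, downstream 2009 replicates 6, 7 and 8, were all old.

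By age class the levels of EGLN1.2.2 lay further apart than those of EGLN1.1.2, but this difference between the contigs was not tested. EGLN1.2.2 ranged from 13.4 to 24.7 CPM in young animals (median 19.7), from 9.63 to 25.2 CPM in middle-aged animals (median 18.3) and from 3.80 to 21.2 CPM in old animals (median 11.6). Of the 11 old animals 10 lay below the median of the other 21, and 1 of those 21 lay below the median of the old animals. The old animals lay below every other animal of their group in 7 of 7 cases downstream in 2009, in 1 of 1 upstream in 2010 and in 2 of 2 downstream in 2010. In the first of these groups the comparison rests on 1 middle-aged animal with 21.5 CPM. Upstream in 2009 the old animal had 14.1 CPM and lay below the median of the others, 20.1 CPM, but not below their lowest, 9.63 CPM.

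With group and age class as terms of the model, EGLN1.2.2 differed by -0.87 ± 0.30 (SE) on the log2 scale between old and young animals, with an unadjusted p of 0.00641 and an adjusted p of 0.0941 by edgeR's quasi-likelihood test, which does not pass. Old against young called 2.45% of all contigs, 2.07% as higher and 0.382% as lower. The difference did pass with DESeq2 (adjusted p of 0.0467), with limma-voom and sample weights (0.00529), with lane in the model (-1.26 ± 0.37, 0.0403), without downstream 2009 replicates 7 and 8 (-0.79 ± 0.24, 0.0434) and without downstream 2009 replicate 5 (0.0484). In edgeR it did not pass with RLE in place of TMM scaling (0.0920), no filter (0.0944) or a filter of 1 CPM in 8 libraries (0.0930). Nor did it pass without TMM factors (0.294). With single libraries left out, 31 of 32 edgeR fits left it uncalled, with adjusted p up to 0.405. Against middle-aged animals the old ones differed by -0.75 ± 0.27, with an unadjusted p of 0.00964 and an adjusted p of 0.284. Middle-aged and young animals differed by -0.12 ± 0.23, with an interval of 2 SE from -0.58 to 0.34 and an adjusted p of 0.830. Lane 3 held 0 young animals and lane 2 held 6 of the 10, so lane and age class were not independent.

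EGLN1.1.2 ranged from 1.89 to 11.8 CPM in young animals (median 3.27), from 2.39 to 6.58 CPM in middle-aged animals (median 3.62) and from 1.65 to 4.61 CPM in old animals (median 2.37). Here 8 of 11 old animals lay below the median of the others. The fitted differences were -0.40 ± 0.32 for old against young and -0.42 ± 0.30 for old against middle-aged, with adjusted p of 0.429 and 0.529 by edgeR. Middle-aged and young animals differed by 0.018 ± 0.24, with an adjusted p of 0.976. The comparison of old with middle-aged animals called 0% of contigs with edgeR and that of middle-aged with young animals 0.0039%; at an unadjusted p under 0.05 they held 13.3% and 11.3%. For old against middle-aged DESeq2 called 2 contigs and limma-voom with sample weights 2387.

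**Figure D2:**
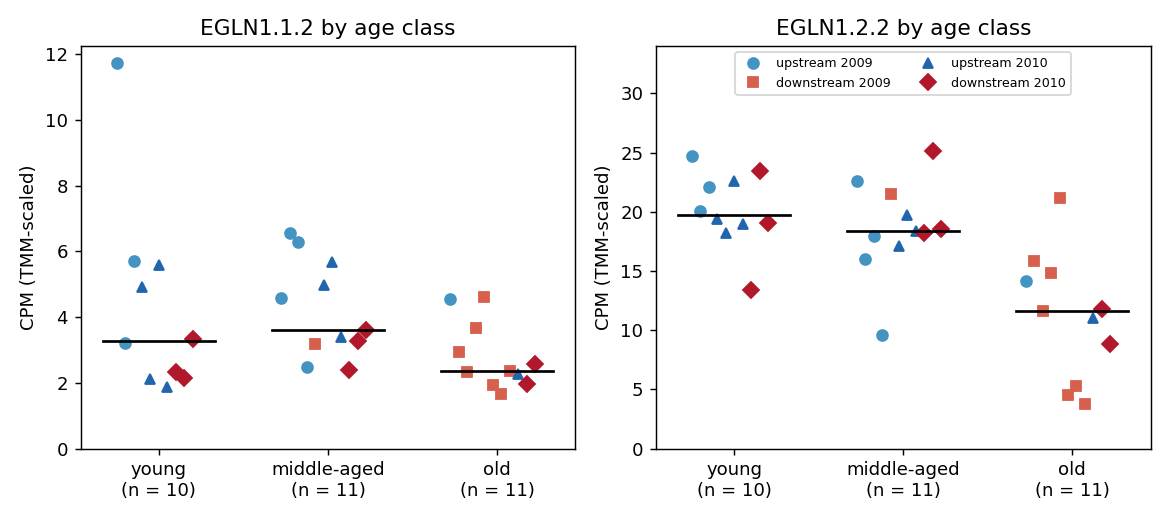
TMM-scaled CPM (linear axis) of both EGLN1 contigs by age class; points are animals with symbol and colour for the group, and lines are medians. The median of EGLN1.2.2 is 19.7 CPM in young, 18.3 in middle-aged and 11.6 CPM in old animals.

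The libraries with low EGLN1.2.2 also differed in their other transcripts. Across the 32 libraries, which share the 4 groups and lanes, log2 CPM of EGLN1.2.2 had a Pearson r of -0.61 with the summed ribosomal protein contigs, -0.49 with the summed muscle markers and -0.48 with the 3 kidney markers. For EGLN1.1.2 these values were -0.15, -0.40 and -0.38. With the cilia marker DYH7 the r was -0.46 for EGLN1.1.2 and -0.23 for EGLN1.2.2. By rank (Spearman rho) the order differed. For EGLN1.2.2 rho was -0.55 with the ribosomal sum, -0.33 with muscle, -0.68 with kidney and -0.44 with DYH7. For EGLN1.1.2 rho was -0.18, -0.45, -0.42 and -0.53 in the same order. The ribosomal sum had a median of 11162 CPM (7272 to 25518) in young, 14803 CPM (8672 to 57185) in middle-aged and 17089 CPM (9137 to 109945) in old animals. The muscle sum over 14 contigs had medians of 699, 483 and 789 CPM in the same order, and the kidney sum had medians of 7.63, 7.56 and 14.5 CPM. DYH7 had medians of 7.76, 8.54 and 12.2 CPM. The part of these differences in the EGLN1 values was not tested. In whole kidney, fewer cells of a type and less RNA per cell cannot be told apart.

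Between 2009 and 2010 neither contig passed the test with edgeR at either site or over both. EGLN1.1.2 differed by -0.31 ± 0.20 over both sites, with an interval of 2 SE from -0.70 to 0.081 and an adjusted p of 0.225 by edgeR; without TMM factors, which moved the median of all contigs by 0.41, the value relative to that median was -0.35. Upstream the difference was -0.55 ± 0.28 (unadjusted p of 0.0558, adjusted p of 0.272), and 6 of 8 animals of 2010 lay below the 2009 median. Downstream it was -0.07 ± 0.28, with an adjusted p of 0.877. The year comparison called 34% of contigs over both sites, 3.73% upstream (0.79% higher, 2.94% lower) and 27.7% downstream (14.1% higher, 13.7% lower), so EGLN1.1.2 was among the contigs that did not pass in comparisons where many did. Upstream 2009 replicate 6, at 11.8 CPM, was the animal that moved the upstream value most; without it the difference was -0.31. Exact permutation tests of log2 CPM over all 12870 splits of the 16 animals of a site, two-sided, gave p of 0.135 upstream and 0.889 downstream.

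EGLN1.2.2 differed between the years by 0.24 ± 0.21 over both sites (adjusted p of 0.398), by -0.02 ± 0.29 upstream (adjusted p of 0.980) and by 0.49 ± 0.29 downstream (adjusted p of 0.222, edgeR). The interval of 2 SE for the downstream value ran from -0.10 to 1.08. This value passed with limma-voom and sample weights (0.53, adjusted p of 0.0422). With an age term the downstream value was -0.030, and without downstream 2009 replicates 7 and 8 it was 0.19. Downstream, 7 of 8 animals were old in 2009 and 2 of 8 in 2010. Within lanes the downstream value was 0.38, 2.24, 0.11 and 0.039, and the lane with 2.24 held downstream 2009 replicates 7 and 8. Exact permutation tests, two-sided, gave p of 0.950 upstream and 0.111 downstream.

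The site by year interaction asks whether the site difference differed between the years. It was 0.48 ± 0.39 for EGLN1.1.2 and 0.51 ± 0.41 for EGLN1.2.2, with an adjusted p of 0.795 and 0.796 (edgeR). Over all contigs it called 0.441%, 0.439% as higher and 0.00195% as lower. The intervals of 2 SE ran from -0.30 to 1.26 and from -0.32 to 1.34, so a site difference of equal size in both years and a clearly larger one in 2009 both lay within them.

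**Figure D3:**
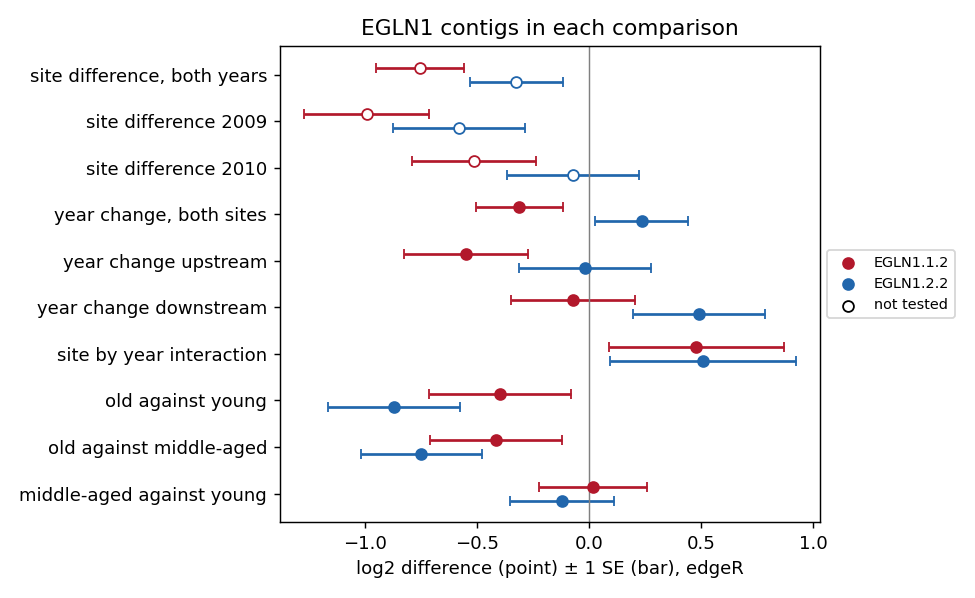
log2 differences of both EGLN1 contigs with bars of ± 1 SE in the 3 site, 3 year, 1 interaction and 3 age comparisons, from edgeR; open points were not tested because the gene was chosen from them. Red points (EGLN1.1.2) reach -0.99 for the site in 2009 and blue points (EGLN1.2.2) -0.87 for old against young.

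The levels of the contigs were related in part. Their log2 CPM across 32 libraries correlated with r = 0.55 (Pearson) and rho = 0.50 (Spearman), and r was 0.54 for deviations from the group means. Reads that match both contigs may have been split between them, and how such reads were counted is not given in the sources used here. EGLN1.1.2 took 8.41% to 38.3% of the EGLN1 reads of a library. Contig lengths are not known, so this share was compared between libraries only and not read as a ratio of transcripts.

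The share of EGLN1.1.2 had a median of 22.5% upstream in 2009 (13.8% to 32.2%), 18.9% downstream in 2009 (13.0% to 38.3%), 18.5% upstream in 2010 (9.06% to 22.6%) and 14.6% downstream in 2010 (8.41% to 22.5%). The highest share, 38.3%, came from downstream 2009 replicate 8 with 120 of its EGLN1 reads on EGLN1.1.2 and an exact 95% binomial interval from 32.9% to 44.0%, which covers counting error only. As a log2 ratio of the contigs' counts, which no library scaling affects, the year difference was -0.54 upstream and -0.72 downstream. Exact permutation tests over 12870 splits, two-sided, gave p of 0.0721 and 0.0270, or 0.0721 and 0.0541 after adjustment over both sites, so neither passed; the ratio was chosen after the values had been seen. Without downstream 2009 replicates 7 and 8 the downstream value was -0.48, with an exact permutation p of 0.104. Without the old animals the downstream value was -0.038, with 1 animal left in 2009, and the upstream value was -0.53.

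**Figure D4:**
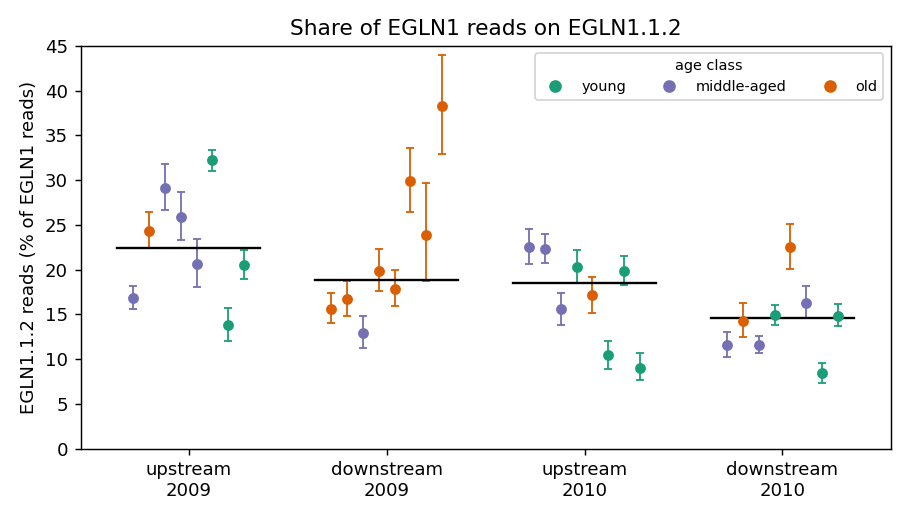
Percent of the EGLN1 reads of each library that fell on EGLN1.1.2 (linear axis) by group; points are animals coloured by age class, bars are exact 95% binomial intervals, and lines are group medians. The medians are 22.5% and 18.9% in 2009 and 18.5% and 14.6% in 2010, upstream first, with overlapping ranges.

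Few other parts of the oxygen-sensing machinery carried a name in the assembly. Names for HIF subunits, VHL, cullin 2, the asparaginyl hydroxylase and other EGLN enzymes had no match, nor had globins or hemocyanin. The lists that did match held 25 contigs, all of which passed the filter. Over both sites 5 of them fell between the years and 0 rose, against 18.3% of all contigs called lower and 15.7% called higher. Upstream 1 fell, against 2.94% of all contigs called lower, and downstream 5 fell, against 13.7%; 0 rose at either site. The interaction called 0 of the 25, against 0.441% of all contigs. Their median log2 change was -0.12, against -0.0085 over all contigs, and it was 0.29 without TMM factors, a setting that moved the median of all contigs by 0.41.

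Of the ubiquitin ligase that acts after EGLN1, elongin C (ELOC) and RBX1 were measured. RBX1 ranged from 12.0 to 76.8 CPM upstream and from 21.6 to 143 CPM downstream in 2009, and from 13.1 to 28.7 CPM and from 11.5 to 51.5 CPM in 2010. It fell by 1.07 on the log2 scale over both sites (SE 0.29, adjusted p of 0.00547, edgeR) and by 1.27 downstream (adjusted p of 0.0218). The downstream call was lost without downstream 2009 replicate 7 (-0.90, adjusted p of 0.0927) or 8 (-1.10, 0.0511), and without both it was -0.54 (0.335). Across 12 other settings of the processing or model, the downstream call was kept in 6, with log2 values from -1.52 to -0.40. The call over both sites was lost without TMM factors (-0.42, adjusted p of 0.127), a setting that moved the median of all contigs by 0.41. It was also lost with an age term (-0.79, 0.0699) and with age and lane terms (-0.44, 0.374). Without the old animals, which leaves 1 animal downstream in 2009, the value was -1.14. RBX1 serves many cullin ligases besides that of VHL. ELOC was not called and differed by 0.27 ± 0.15, with an adjusted p of 0.170.

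EGLN1 belongs to a family of dioxygenases that share its need for iron and 2-oxoglutarate. Of the other members, phyh (phytanoyl-CoA hydroxylase of peroxisomes) had the highest mean level. It ranged from 19.9 to 48.2 CPM upstream and from 8.60 to 34.3 CPM downstream in 2009, and from 15.3 to 41.4 CPM and from 7.66 to 28.5 CPM in 2010. None of the 4 contigs (phyh, JMD6A, kdm6a and ogfod2) was called in the year or age comparisons by edgeR. Their median year change over both sites was 0.0033. As a description without a test, their site differences over both years were also below 0. They were -0.55 ± 0.21 (SE) for phyh, -0.78 ± 0.24 for kdm6a, -0.25 ± 0.21 for JMD6A and -0.12 ± 0.14 for ogfod2. EGLN1.1.2 had -0.75 ± 0.20 in this contrast. The mean level of kdm6a was 0.58 CPM.

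Metabolism around 2-oxoglutarate, succinate and fumarate, the substrate and inhibitors of this family, was represented by 6 contigs, among them MDH2 and MDHC, named for malate dehydrogenases that act on malate and oxaloacetate. All 6 had values below 0 between the years over both sites, with a median of -0.38. Of the 6, 1 was called lower, against 18.3% of all contigs. The share of all contigs below 0 was not counted, so nothing is read from these counts. The median of the 6 was 0.051 without TMM factors, a setting that moved the median of all contigs by 0.41. It was -0.12 with limma-voom and sample weights. The upstream median of -0.34 was 0.054 and 0.10 under these settings, and without TMM factors the median of all contigs moved by 0.33 upstream. SUCA, named for the alpha subunit of succinyl-CoA ligase, ranged from 81.8 to 399 CPM upstream and from 97.8 to 359 CPM downstream in 2009, and from 56.6 to 183 CPM and from 69.0 to 129 CPM in 2010. It fell by 0.68 over both sites (SE 0.22, adjusted p of 0.0150, edgeR) and by 0.88 downstream (adjusted p of 0.0311). The downstream call was lost without downstream 2009 replicates 7 or 8, or downstream 2010 replicates 4 or 8, each left out alone. The adjusted p values were then 0.0600, 0.0862, 0.0570 and 0.0566 (edgeR). Across 12 other settings of the processing or model, the downstream call was kept in 6, with log2 values from -1.01 to -0.24. The fall over both sites did not pass without TMM factors (-0.14, adjusted p of 0.472), with limma-voom and sample weights (-0.23, 0.275), with age and lane terms (-0.50, 0.151), without the old animals (-0.66, 0.187) or without downstream 2009 replicates 7 and 8 (-0.53, 0.0524).

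Iron, the metal at the active site of EGLN1, is stored by ferritin. The ferritin contigs FRIS.1.2 and FRIS.2.2 had log2 changes of -1.097 and -1.221 over both sites (SE 0.27 and 0.28, adjusted p of 0.00215 and 0.00148, edgeR). These were -0.46 and -0.58 without TMM factors, a setting that moved the median of all contigs by 0.41. They were -0.49 and -0.56 with limma-voom and sample weights. With age and lane terms FRIS.1.2 did not pass (-0.76, adjusted p of 0.0707, edgeR). FRIS.1.2 had a median of 14388 CPM upstream in 2009, where that of the downstream animals was 12350 CPM, and medians of 9927 and 7180 CPM at these sites in 2010. The changes downstream, -1.39 and -1.54, were -0.66 and -0.87 without downstream 2009 replicates 7 and 8 and then did not pass (adjusted p of 0.138 and 0.086). Across 12 other settings of the processing or model, each downstream call was kept in 9. The log2 values there ran from -1.46 to -0.62 for FRIS.1.2 and from -1.72 to -0.77 for FRIS.2.2. These contigs carry 1 name and may share reads.

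HIF targets in glycolysis and mitochondria matched 10 contigs. Between the years over both sites 1 was called lower, against 18.3% of all contigs. The 4 G3P contigs, the PGK contig and the 4 HIGD1A contigs (glyceraldehyde-3-phosphate dehydrogenase, phosphoglycerate kinase and a hypoxia-induced mitochondrial protein) had year values between -0.15 and 0.24 over both sites. For HIGD1A this mean joined values of 0.30 to 0.49 upstream and -0.60 to -0.41 downstream, none of which passed. Its interaction values were -0.96 to -0.89, with adjusted p of 0.580 to 0.654 by edgeR. These HIGD1A contigs share a name and may share reads. GapC2a, another name for glyceraldehyde-3-phosphate dehydrogenase, fell by 4.64 (SE 0.85, adjusted p of 0.000160, edgeR). Its 2009 medians were 3.40 CPM upstream and 0.424 CPM downstream, and those of 2010 were 0.0329 and 0.0242 CPM, with libraries at 0 in 3 of the 4 groups. Downstream the fall was 3.47 (adjusted p of 0.0234; 0.0658 without downstream 2009 replicate 3); upstream it fell by 5.82, which did not pass with limma-voom and sample weights (adjusted p of 0.307). The organism that gave its reads was not tested.

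By age edgeR called 0 of the 25 pathway contigs in each comparison, against 2.45% of all contigs for old against young, 0% for old against middle-aged and 0.0039% for middle-aged against young. For old against young animals 22 had values below 0, with a median of -0.36 against -0.025 over all contigs. For old against middle-aged animals 24 had values below 0, with a median of -0.58 against 0.0082. The G3P, HIGD1A and FRIS contigs each share a name and may share reads, so these counts do not rest on 25 separate genes. The share of all contigs below 0 was not counted. In the first comparison limma-voom with sample weights called 3 of these contigs and DESeq2 1, and in the second the former called 3. Over all contigs the called count ranged from 699 to 8554 across settings in the first comparison and from 0 to 2387 in the second. Nothing is read from these list counts.

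**Figure D5:**
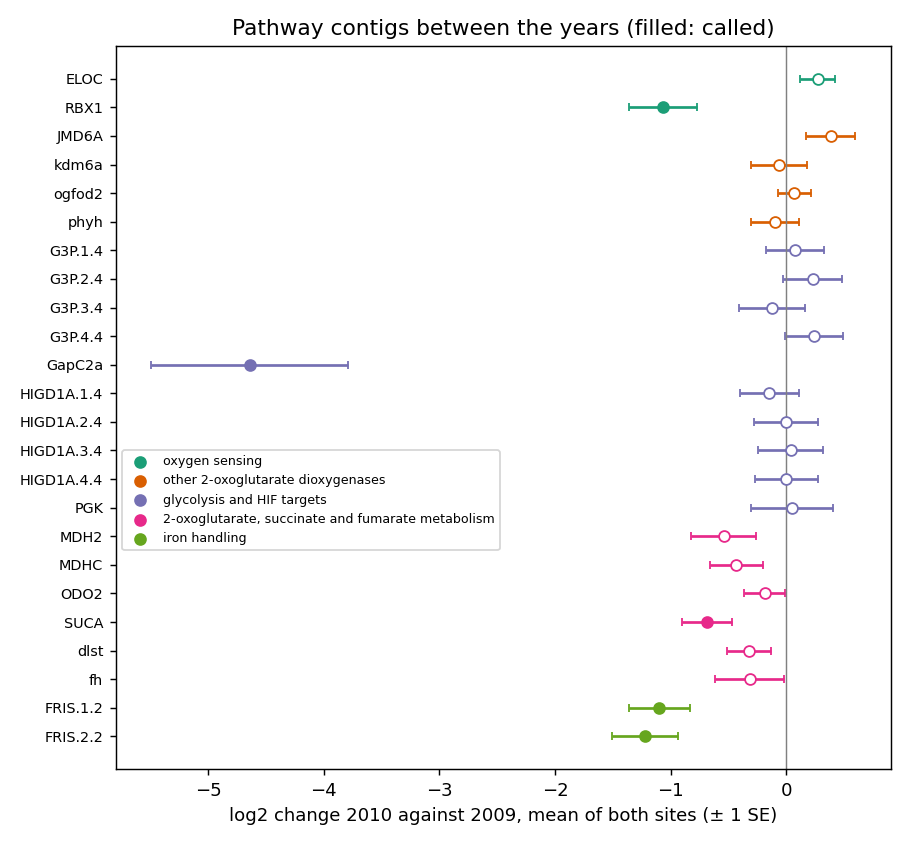
log2 change between 2009 and 2010 (mean of both sites, bars ± 1 SE, edgeR) of 24 of the 25 contigs in the pathway lists, coloured by list; filled points passed an adjusted p of 0.05. RBX1, GapC2a, SUCA, FRIS.1.2 and FRIS.2.2 are filled, at -1.07, -4.64, -0.68, -1.097 and -1.221.

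The named contigs whose pattern was most like that of EGLN1.1.2 were looked up by Spearman rho of log2 CPM over the 32 libraries among 1285 named contigs with a mean of at least 1 CPM. They were DBT (rho of 0.78), a subunit of the branched-chain keto acid dehydrogenase, and mmab (0.77), an enzyme of cobalamin metabolism. PPIA (0.75), named for the folding enzyme cyclophilin A, IAH1.2.2 (0.75), named for an esterase, and XDH.1.2 (0.75), named for xanthine dehydrogenase of purine breakdown, followed. The median rho of all named contigs was 0.040. The libraries fall into the same groups and lanes and differ in their RNA composition, so these values are descriptions.

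The contigs were picked for their rho over these same libraries, so what follows is no separate support. After removal of the group means the rho values of DBT, mmab, PPIA, IAH1.2.2 and XDH.1.2 were 0.72, 0.78, 0.77, 0.74 and 0.78, and without downstream 2009 replicates 7 and 8 the lowest of the 5 was 0.73. Mean CPM of DBT in 2009 was 24.4 ± 8.83 (SD, n = 8) upstream and 21.3 ± 9.20 downstream, and in 2010 it was 21.8 ± 5.33 and 15.3 ± 5.65. EGLN1.2.2, with a rho of 0.50, ranked below 153 other named contigs. Among contigs of every kind with a mean of at least 1 CPM, 24 of 44859 had a higher rho than DBT.

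At the other end lay F5 (rho of -0.63), named for a coagulation factor, pogk.4.8 (-0.62), HES4 (-0.61), named for a repressor in Notch signalling, DOK4 (-0.61), named for a docking protein of receptor tyrosine kinases, and KIF4A (-0.60), a kinesin of cell division. After removal of the group means they had rho values of -0.50, -0.50, -0.67, -0.66 and -0.66. Among contigs of every kind with a mean of at least 1 CPM, 487 of 44859 had a lower rho than F5. Mean CPM of HES4 in 2009 was 3.33 ± 2.86 (SD, n = 8) upstream and 6.42 ± 5.56 downstream, and in 2010 it was 2.06 ± 1.04 and 2.86 ± 1.75. For F5 the SD exceeded the mean in both groups of 2009, with 2.19 ± 4.04 CPM upstream and 3.98 ± 5.95 CPM downstream.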

How the data were processed

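The authors deposited raw read counts per assembled contig, 1 column for each of 32 kidney libraries (TruSeq RNA v2, per the labels' protocols). BWA 0.7.12 and SAMtools 1.1 are listed in the submitters' processing notes; the assembler, the naming of contigs and the counting rule are not given in the sources used here. Replicates are numbered in accession order. The analysis used edgeR 4.0.16 under R 4.3.3: filterByExpr (minimum count 10, minimum total 15) left 51264 contigs, TMM scaling, robust glmQLFit with 4 group means, or group plus age class, and Benjamini-Hochberg adjustment over all contigs (threshold 0.05). The precision is set by the spread between animals, since libraries held 55.7 M to 190 M counts. Alternatives used limma 3.58.1 (voom with sample weights) and DESeq2 1.42.0. The code was also tested on simulated data with known changes; all reported values come from the deposited counts. Log2 CPM used a prior count of 2. Members and lists were chosen with earlier results of these data known. Lists came from textbook members of the pathway. Both contigs of the dehydrogenase complex E2 subunit (ODO2, dlst) were added to the 2-oxoglutarate list when the names were read. Named genes were both EGLN1 contigs, called list members (up to 4 per list, or the most abundant where none was called), and the 5 named contigs of highest and lowest rho with EGLN1.1.2; ELOC and the uncalled members of short lists were added after their values were seen. Of the list members, 1 is counted in the lists but not reported here by name.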

Additional observations from a re-analysis of the deposited data

Results flagged for a closer look

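EGLN1.1.2 in upstream 2009 replicate 6, a young animal, had 11.8 CPM, and the next animal of that group had 6.58 CPM. The gap was 0.559 of the group's range, above Dixon's limit for 8 values. This library also had the highest total count of its group. EGLN1.2.2 in upstream 2010 replicate 5, the old animal of that group, had 11.1 CPM, and the next animal had 17.1 CPM, a gap of 0.527 of the range, just above the same limit. In all, 28 sets of values within groups were examined, and chance alone marks about 1 in 20 groups.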

How the results depend on the processing

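Every EGLN1 difference that edgeR left uncalled kept its side of the threshold in all alternatives run, with these exceptions for EGLN1.2.2: old against young passed with limma-voom and sample weights, used wherever limma-voom is named (-0.886), DESeq2 (-0.881), a lane term (-1.263), without downstream 2009 replicates 7 and 8 (-0.790) and without downstream 2009 replicate 5 (-0.910), old against middle-aged with limma-voom (-0.713), and the year downstream with limma-voom (0.529). Other signs turned as follows, also for the larger values of EGLN1.2.2 (0.49 for the year downstream, 0.51 for the interaction and -0.58 for the site in 2009). Without TMM factors the median of all contigs moved by 0.41 over both sites, 0.33 upstream and 0.49 downstream in the year comparisons; EGLN1.1.2 was then at 0.057 over both sites and 0.36 downstream, and EGLN1.2.2 at 0.26 upstream. With age terms, age and lane terms, or no old animals, the year value of EGLN1.2.2 was -0.038, -0.074 and -0.074 over both sites and -0.030, -0.083 and -0.15 downstream. Its year value upstream was 0.091 with limma-voom, 0.0045 without the old animals and 0.012 by permutation, its interaction -0.019 with age and lane terms, and its 2009 site value 0.090 with those terms and 0.17 without the old animals. The 2010 site value of EGLN1.2.2 was 0.11 without TMM factors and 0.033 with limma-voom. With an age term, age and lane terms, or no old animals it was 0.014, 0.071 and 0.015. Over both years its site value was 0.0050, 0.080 and 0.094 in the same order. Middle-aged against young turned for EGLN1.1.2 without TMM factors (-0.11), with limma-voom (-0.0093) and with a lane term (-0.25). The cause was not tested.

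With single libraries left out, EGLN1.1.2 ranged from -0.16 to 0.063 for the year downstream (turning without downstream 2009 replicate 5) and from -0.063 to 0.23 for middle-aged against young. EGLN1.2.2 ranged from -0.12 to 0.077 for the year upstream and from -0.96 to -0.79 for old against young. The contig ratio ranged from -0.67 to -0.40 upstream, passing at an adjusted p of 0.0272 without upstream 2009 replicate 7 and of 0.0499 without upstream 2010 replicate 1. Downstream it ranged from -0.84 to -0.55. It passed without downstream 2009 replicates 1, 2 or 3, or without downstream 2010 replicate 5 (lowest adjusted p of 0.0168, exact permutation). The downstream ratio also passed without either of those upstream animals. Leaving them out did not change the downstream value, only the adjustment over both sites.

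Called pathway contigs numbered 5 over both sites, 8 with limma-voom, 2 with age and lane terms and 3 without the old animals. The 1 upstream call became 0 with limma-voom and with a filter of 1 CPM in 8 libraries, which removed GapC2a. The 5 downstream became 9 with limma-voom, 1 without downstream 2009 replicates 7 and 8, 0 with age and lane terms or without the old animals, and 3 to 6 with single libraries left out, 3 without replicate 7 or 8. By age they were 3 with limma-voom in both comparisons of old animals, and 1 with DESeq2 or a lane term against young ones. Counts over all contigs moved across the settings too, from 7470 to 24082 over both sites, 514 to 4420 upstream and 83 to 24469 downstream. Nothing is therefore read from the moves of the list counts. The median of these 25 contigs was 0.19 for the year downstream without TMM factors. The rho of F5 was -0.50 after removal of group means.

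Counts over all contigs moved with the setting, from 7470 to 24082 for the year over both sites (17412), 514 to 4420 upstream (1914), 83 to 24469 downstream (14225), 1 to 4070 for the interaction (226), 699 to 8554 for old against young (1258), 0 to 2387 for old against middle-aged (0) and 0 to 533 for middle-aged against young (2). With single libraries left out, the count for old against young ranged from 0 to 2580. No paired analysis was possible because the labels give no replicate numbers shared between groups.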
